A study of Homo sapiens with 24 samples.

Results

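The response of 22Rv1 cells to a synthetic androgen was taken from the 6 RNA-seq libraries, out of 24 in the experiment, in which this line received the control siRNA. All 6 came from 22Rv1 cells transfected with siScramble (siSCR), a pool of siRNAs with no intended target. The medium lacked phenol red and held serum stripped of steroids with charcoal. After 48 h a second transfection with siSCR followed, and the cells were kept for a further 72 h with R1881 at 1 nM (3 libraries) or with ethanol as vehicle (3 libraries). The other 18 libraries hold the same treatments of 22Rv1 cells with an siRNA pool against METTL3 (siMETTL3) and of LNCaP:C4-2 cells with either pool, and enter here where the responses were compared. 22Rv1 is an established prostate cancer (PCa) line derived from a xenograft that relapsed after castration. Nothing in the labels says that the libraries came from separate cultures, so p values measure the spread between libraries, which may be technical.

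Androgens are steroid hormones that control growth, differentiation and secretion in the prostate, mainly by changing which genes are transcribed. In PCa cells genes such as KLK3, TMPRSS2 and FKBP5 are known to rise with androgen, while other genes fall. R1881 (methyltrienolone) is a synthetic androgen that cells break down slowly.

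The 6 libraries held 17060909 to 18287758 counted fragments, and 3 fragments, taken as the smallest readable signal, equalled 0.164 to 0.176 CPM (counts divided by the library total and put on 1 scale). This limit covers counting error only. All 12 prostate luminal markers listed were measured, with a summed level of 2507 to 2703 CPM in the vehicle libraries and 2463 to 2530 CPM in the R1881 libraries. Of 6 basal markers DST passed the filter on low counts, and KRT14 and KRT15 were at 0 in all 6 libraries. Of 9 stromal markers 4 passed, and the summed level of the list was 31.1 to 39.5 CPM with vehicle and 21.6 to 22.3 CPM with R1881. Of 10 endothelial and blood markers 1 passed, the list sum was at most 1.75 CPM, and CDH5 was at 0 in all 6 libraries. Vehicle library 3 stood apart from the other vehicle libraries, with a chi-square per gene of 16.8 and 11.8 against them where those differed from each other by 3.51 and the R1881 libraries by 2.21 to 4.42 (1 is sampling noise). Mitochondrially encoded genes took 6.12% to 6.89% of the vehicle libraries and 4.96% to 5.28% of the R1881 libraries. CPM values below were scaled by the TMM method, and fold changes, standard errors (SE) and adjusted p values come from the quasi-likelihood test of edgeR, adjusted by Benjamini-Hochberg over the 17865 genes tested.

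R1881 changed 2471 genes (DEGs, adjusted p under 0.05 and at least 1.5-fold), 13.8% of the genes tested. Most of them fell: 749 genes (4.19%) were higher with R1881 and 1722 (9.64%) lower, so that 69.7% of the DEGs were lower. The median change was 0.91 log2 among the higher and -1.04 among the lower DEGs, and the median over all genes tested was 0.0021. Changes of at least 1 log2 numbered 324 upward and 911 downward, and changes of at least 3 log2 38 and 54. The 3 vehicle and the 3 R1881 libraries did not overlap for 2394 DEGs and overlapped for 77, where 43.5% of all genes tested do not overlap. Without the fold threshold 5903 genes passed, 2962 higher and 2941 lower.

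Falls were most frequent among genes of 1 to 10 CPM. Lower genes had a median of 5.33 CPM with vehicle and 2.57 with R1881, and higher genes 8.76 and 17.9 CPM, where the median of all genes was 16.8 CPM with vehicle. Among genes with a mean of 1 to 10 CPM 19.2% were lower and 4.97% higher, whereas among those of at least 100 CPM 2.45% were lower and 4.15% higher. Under 1 CPM 10.1% were lower and 3.42% higher, and between 10 and 100 CPM 5.51% and 3.95%. Measured by fragments the balance was the reverse of that by genes. The higher DEGs took 2.71% to 2.87% of the counts of a vehicle library and 5.33% to 5.39% of those of an R1881 library, and the lower DEGs went from 4.16% to 4.58% down to 2.02% to 2.11%. Protein-coding genes were DEGs in 14.9% of cases, long noncoding RNAs in 10.4% and pseudogenes in 9.60%. By chromosome the share ran from 9.49% on chromosome 22 to 20.1% on chromosome 18, apart from the mitochondrial genes, of which 1 of 28 was a DEG with a median change of -0.32.

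**Figure D1:**
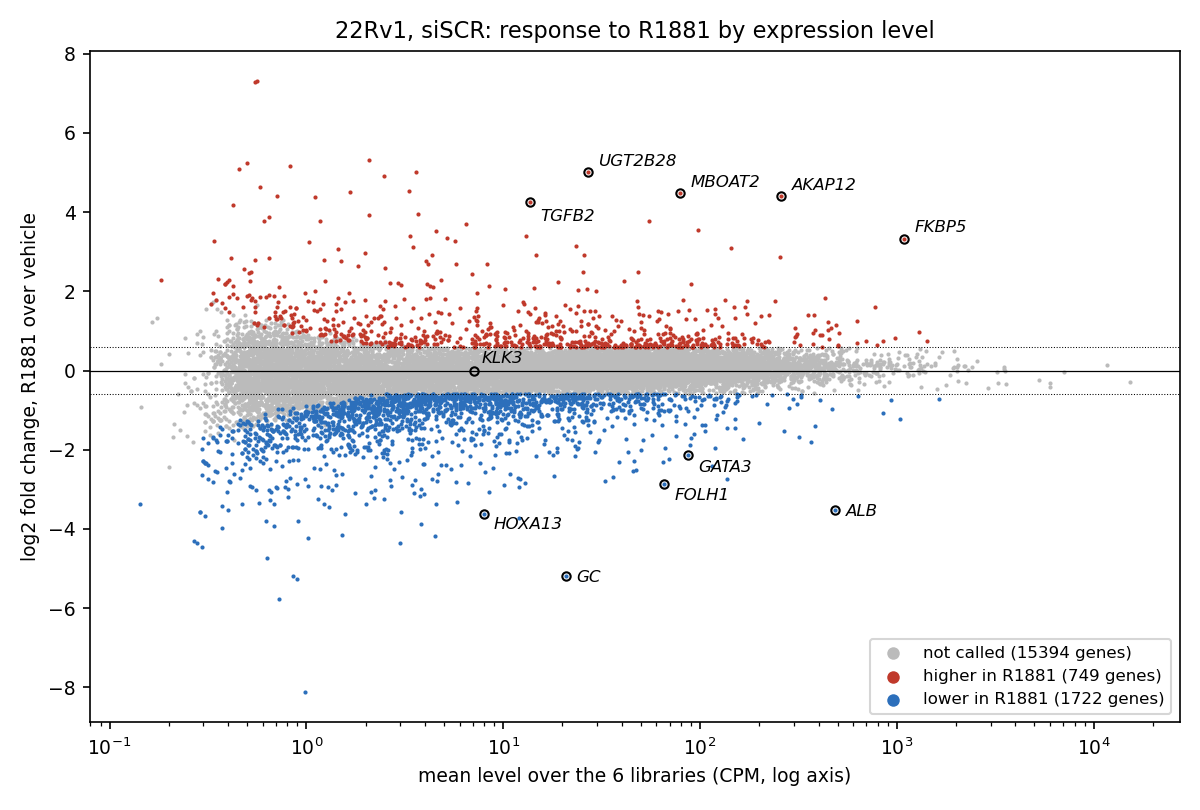
Log2 fold change of R1881 over vehicle (vertical axis) against mean level over the 6 siSCR libraries in CPM on a log axis (horizontal) for the 17865 genes tested in 22Rv1, with the 749 higher and 1722 lower DEGs in colour. The lower DEGs are most frequent between 1 and 10 CPM, and the largest rises and falls exceed 5 log2.

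Genes of glucuronidation, membrane lipid and transport were among the 15 named rises, those with the largest fold change at a mean of at least 1 CPM. UGT2B28 (chromosome 4, 69280487 to 69423402), an enzyme that conjugates androgens and other steroids with glucuronic acid, had 1.52, 1.38 and 1.97 CPM with vehicle and 45.6, 47.2 and 64 CPM with R1881. It was 32-fold higher (log2 fold change 5.00, SE 0.20, adjusted p = 2.0e-14), and the groups lay far apart. UGT2B11 (chromosome 4, 69004618 to 69214731), a related enzyme, went from 13.1, 14 and 19.2 to 168, 163 and 211 CPM, or 11.7-fold (SE 0.13 log2, adjusted p = 3.8e-15). UGT1A1 (chromosome 2, 233760248 to 233773299), which conjugates bilirubin and shares its last exons with the other UGT1A genes, rose from 0.394, 0.173 and 0.232 to 7.81, 4.5 and 6.72 CPM. Counts of these families are uncertain, since fragments that align to several places or to overlapping genes were left out.

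AKAP12 and MBOAT2 were also among the 15. AKAP12 (chromosome 6, 151239999 to 151358557), a scaffold for protein kinase A, stood at 25.2, 22.3 and 22.4 CPM with vehicle and at 516, 458 and 506 CPM with R1881, a 21.1-fold rise (SE 0.0921 log2, adjusted p = 2.7e-19). MBOAT2 (chromosome 2, 8852690 to 9003813), which attaches fatty acids to lysophospholipids, stood at 5.86, 7.21 and 7.49 and 149, 145 and 162 CPM, a 22.2-fold rise (SE 0.11 log2, adjusted p = 4.9e-18). In both genes every R1881 library was more than 10-fold above every vehicle library. PDE3A (chromosome 12, 20369245 to 20684381), a phosphodiesterase that degrades cyclic AMP, went from 7.55, 7.27 and 7.55 to 100.3, 102 and 104 CPM, or 13.7-fold (SE 0.10 log2, adjusted p = 4.4e-17).

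Other named rises began from low levels. TGM2, which cross-links proteins, went from 0.0563, 0.231 and 0.174 to 5.28, 4.27 and 4.94 CPM (log2 fold change 4.92, SE 0.32, adjusted p = 8.9e-11). TGFB2 (chromosome 1, 218346235 to 218444619), a ligand of the TGF-beta receptors, went from 1.07, 0.808 and 2.21 to 26.5, 23.6 and 28.1 CPM, or 19.1-fold (SE 0.21 log2, adjusted p = 8.9e-13). In both genes the groups did not overlap. SLC26A3, a chloride and bicarbonate exchanger, rose from 0.507, 0.288 and 0.522 to 5.57, 5.86 and 9.36 CPM, and ANKRD33, a protein with ankyrin repeats, from 1.3, 0.75 and 0.697 to 12.2, 11.6 and 12.3 CPM. SLC2A3, the glucose transporter GLUT3, rose from 0.0563, 0.231 and 0.174 to 2.01, 1.95 and 2.64 CPM with a wide error (log2 fold change 3.79, SE 0.52, adjusted p = 7.0e-06). STAB2, a scavenger receptor for hyaluronan, held 1, 3 and 1 counts with vehicle and 47, 36 and 27 with R1881, a ratio of 21.3 (95% exact counting interval 8.87 to 67).

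**Figure D2:**
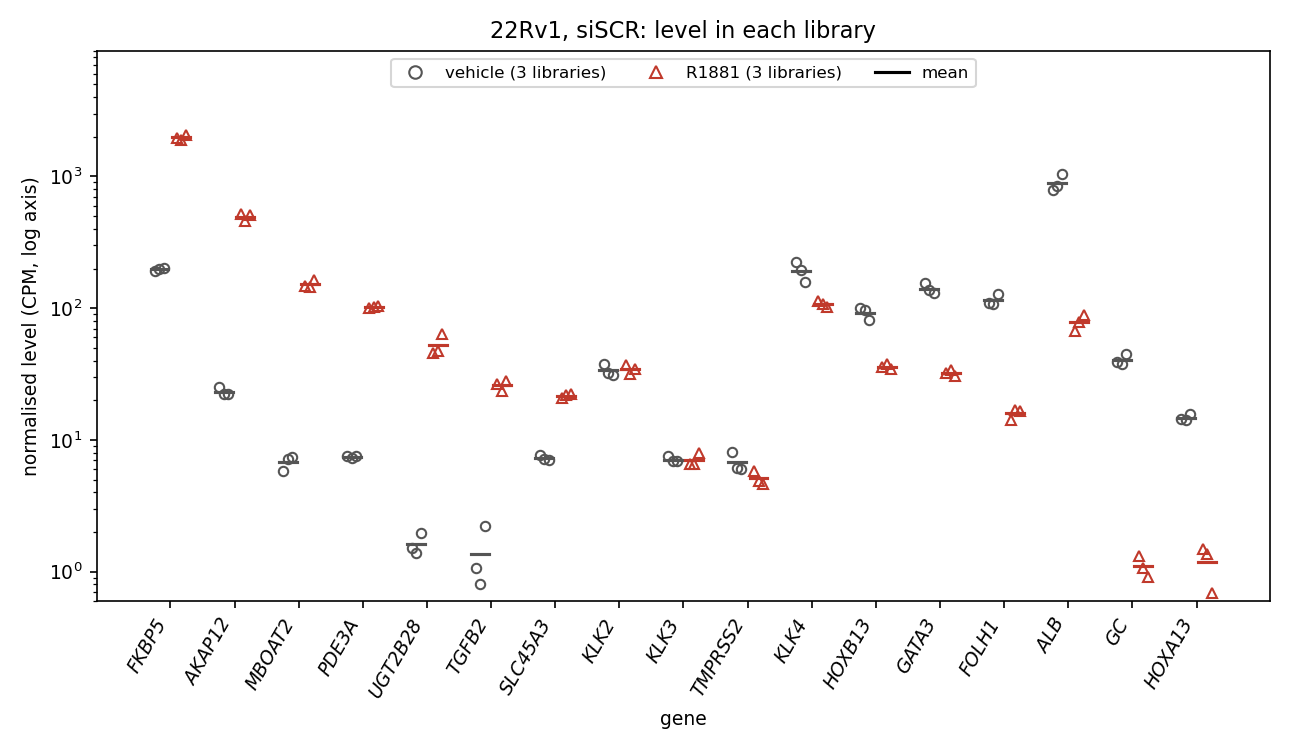
Level in CPM (log axis) of 17 genes described in the text in each of the 3 vehicle and 3 R1881 libraries of siSCR 22Rv1 cells, 1 point per library, with each group's mean. The R1881 points of UGT2B28, AKAP12, MBOAT2 and FKBP5 lie far above the vehicle points, those of GC and ALB far below, and the points of KLK3 overlap.

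Plasma proteins, homeobox genes and genes of neuronal contact were among the 15 largest falls. GC (chromosome 4, 71741693 to 71804041), the vitamin D-binding protein of plasma, had 39.3, 37.4 and 44.9 CPM with vehicle and 1.32, 1.07 and 0.919 CPM with R1881, which was 36.5-fold lower (log2 fold change -5.19, SE 0.16, adjusted p = 1.8e-16). ALB (chromosome 4, 73397114 to 73421412), serum albumin, stood at 790.1, 839.6 and 1052 CPM with vehicle and at 67.6, 78 and 89.3 CPM with R1881, 11.4-fold lower (SE 0.11 log2, adjusted p = 3.3e-16). ALB and GC lie close to each other on chromosome 4 and belong to 1 gene family. FGB, the beta chain of fibrinogen, fell from 6.31, 7.96 and 7.14 to 0.689, 0.355 and 0.402 CPM, or 14.6-fold (SE 0.24 log2, adjusted p = 3.8e-11). ADH1B, an alcohol dehydrogenase, fell from 6.14, 4.15 and 6.79 to 0.172, 0.178 and 0.459 CPM. Products of these 4 genes are known mainly from liver. The labels give no cell type other than 22Rv1, and no list of liver markers was tested.

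HOXA13 (chromosome 7, 27193503 to 27200106) and EVX1 (chromosome 7, 27242700 to 27250493), homeobox genes at the end of the HOXA cluster, fell together. HOXA13 went from 14.4, 14.1 and 15.7 to 1.49, 1.36 and 0.689 CPM, or 12.4-fold (SE 0.19 log2, adjusted p = 1.3e-12). EVX1 went from 10.1, 9.86 and 5.69 to 0.632, 0.474 and 0.287 CPM, or 18.2-fold (SE 0.29 log2, adjusted p = 1.8e-10). The groups overlapped for neither gene. Among genes of neuronal contact ROBO2, a receptor of the SLIT guidance cues, fell from 3.77, 3.11 and 4.18 to 0.402, 0.355 and 0.287 CPM, CBLN2, a secreted organiser of synapses, from 9.8, 8.59 and 6.5 to 0.804, 1.01 and 0.574 CPM, and NTM, an adhesion protein of neurons, from 2.76, 2.77 and 1.22 to 0.287, 0.237 and 0.115 CPM. EDIL3, an extracellular ligand of integrins, fell 11.9-fold, MGAT4C, a glycosyltransferase, 13.2-fold, TTLL6, which adds glutamate chains to tubulin, 12.2-fold, and LANCL3 11-fold. REG4, a secreted lectin of the gut, held 32, 28 and 41 counts with vehicle and 0, 3 and 2 with R1881, and BMX, a cytoplasmic tyrosine kinase, 53, 35 and 62 and 3, 3 and 2. The vehicle level of REG4 was higher by a ratio of 20.8 (95% exact counting interval 8.64 to 65.5) and that of BMX by 19.3 (95% exact counting interval 9.56 to 45.6).

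The 10 DEGs with the largest change in fragments named a partly different group, of chaperones, transporters and enzymes of lipid and sugar use. FKBP5 (chromosome 6, 35573585 to 35728583), a co-chaperone of steroid receptors and itself an androgen target, rose from 192, 198 and 201 to 1956, 1903 and 2082 CPM, or 10.1-fold (log2 fold change 3.33, SE 0.0669, adjusted p = 2.3e-19). HSPA8 (chromosome 11, 123057489 to 123063230), the constitutive chaperone of the HSP70 family, had 735, 905 and 963 CPM with vehicle and 1799, 1696 and 1651 CPM with R1881, a 1.98-fold rise (adjusted p = 3.7e-08). Its groups did not overlap. ALCAM, a cell adhesion protein, rose 3.07-fold, LRRC8A, a subunit of the volume-regulated anion channel, 2.38-fold, HSPA5, the main chaperone of the endoplasmic reticulum (ER), 1.76-fold, and SLC38A2, a transporter of neutral amino acids, 1.69-fold. PDK4 (chromosome 7, 95583499 to 95596491), which keeps pyruvate out of the citric acid cycle, fell from 1319, 1398 and 1623 to 607, 630.4 and 629 CPM, or 2.33-fold (SE 0.0911 log2, adjusted p = 7.5e-10). SCD, the desaturase that makes oleate, fell 1.64-fold, and PEG10, an imprinted gene derived from a retrotransposon, 2.09-fold.

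Genes known as androgen-induced in PCa cells split. Of 39 measured, 13 rose, 4 fell and 22 were not called, with a median of 0.15 log2 (without vehicle 3, 2 fell and the median was 0.24, and scaled by library size alone, in place of TMM, it was 0.087). Among all genes tested 4.19% rose and 9.64% fell, and the median was 0.0021. FKBP5 was followed by SLC38A4, an amino acid transporter, at 4.76 ± 0.573 CPM with vehicle and 42 ± 2.64 with R1881 (mean ± SD, n = 3 each), 8.82-fold. STEAP4, a metalloreductase, rose 6.78-fold to 7.04 ± 1.45 CPM and CHRNA2, a nicotinic receptor subunit, 4.82-fold to 67.8 ± 3.86 CPM. SLC45A3, known as prostein, rose from 7.72, 7.21 and 7.02 to 20.8, 21.9 and 22.4 CPM, or 2.97-fold (SE 0.11 log2, adjusted p = 4.6e-10). PMEPA1, an inhibitor of TGF-beta signalling, rose 2.85-fold, AQP3, a water and glycerol channel, 2.76-fold, ACSL3, which activates fatty acids, 2.66-fold, and INPP4B, a phosphoinositide phosphatase, 2.26-fold. HPGD, which degrades prostaglandins, HOMER2, EAF2 and HERC3 also rose. EAF2 lost the call under DESeq2, with library size alone and with no filter on low counts, and without vehicle 1, vehicle 2, R1881 1 or R1881 3 its change was 1.01 to 1.12 log2. HERC3 lost it with library size alone and without vehicle 1 or R1881 3, at 0.54 to 0.55 log2 without them.

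The kallikreins and other prostate secretory genes did not follow them. KLK3 (chromosome 19, 50854915 to 50860764), which encodes prostate-specific antigen, had 7.55, 6.86 and 6.91 CPM with vehicle and 6.55, 6.58 and 7.98 CPM with R1881, and the groups overlapped (log2 fold change -0.01, SE 0.16, adjusted p = 0.954). TMPRSS2 (chromosome 21, 41464551 to 41531116), a serine protease of the cell surface, had 8.17, 6.17 and 6.04 and 5.86, 4.92 and 4.65 CPM (log2 fold change -0.40, SE 0.18, adjusted p = 0.10). KLK2 stood at 33.7 ± 3.38 and 34.4 ± 2.79 CPM (adjusted p = 0.839), and AZGP1 at 139 ± 15.8 and 141 ± 3.47 CPM (adjusted p = 0.896), both with a change of the opposite sign under library size alone. KLK4, a protease of the same cluster, fell from 223, 195 and 158 to 114, 108 and 102 CPM, or 1.78-fold (adjusted p = 7.6e-07). ADAMTS1, a secreted metalloprotease, fell 1.8-fold, PART1, a prostate long noncoding RNA, 1.6-fold, and PLPP1, a lipid phosphatase, 1.52-fold. PLPP1 fell short of the fold threshold without vehicle 1, vehicle 3 or R1881 3 (-0.57 to -0.52 log2), and PART1 without vehicle 3 (-0.53).

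Of 27 genes for nuclear receptors and their cofactors 4 fell and the others were not called, with a median of -0.17. For comparison, 9.64% of all genes tested fell and 4.19% rose. Without regard to fold, 14 were lower and 5 higher at an adjusted p under 0.05, and neither edgeR nor DESeq2 called a rise of 1.5-fold (edgeR called 1 without vehicle 3). GATA3, a zinc finger factor of luminal lineages, fell from 157, 137 and 129 to 32.1, 33.8 and 30.5 CPM, or 4.38-fold (adjusted p = 1.4e-13). HOXB13 (chromosome 17, 48724763 to 48729178), the homeobox factor that marks prostate, fell from 99.7, 96.2 and 81 to 35.5, 37.7 and 34.3 CPM, or 2.58-fold (SE 0.10 log2, adjusted p = 2.9e-10). TLE3, a co-repressor, fell 1.7-fold and NR2F2, an orphan nuclear receptor, 1.51-fold, the latter under the fold threshold without vehicle 1 or R1881 1 (-0.56 to -0.52 log2). The pioneer factor FOXA1 (log2 fold change -0.22) and the coactivators NCOA1 (0.08), NCOA2 (-0.23) and NCOA3 (0.07) were not DEGs. NR3C1, which encodes the glucocorticoid receptor, stood at 59.1 ± 3.81 CPM with vehicle and 71.6 ± 0.62 CPM with R1881. Among the 12 luminal markers HOXB13 and FOLH1, which encodes prostate-specific membrane antigen, fell, and FOLH1 fell 7.23-fold from 109.9, 107 and 127 to 14.3, 16.8 and 16.6 CPM. KRT8 and KRT18, the luminal keratins, had log2 fold changes of 0.53 and 0.48, under the fold threshold.

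Of 21 genes that glucocorticoids and androgens both induce, 9 rose and 3 fell, with a median of 0.40. Over all genes tested 4.19% rose and 9.64% fell, with a median of 0.0021. IGFBP1, a binding protein of insulin-like growth factors, went from 1.01, 1.21 and 0.813 to 6.95, 9.0 and 7.06 CPM, or 7.52-fold (adjusted p = 2.2e-09). ERRFI1, a feedback inhibitor of the EGF receptor, went from 58.4, 62.5 and 64.2 to 436, 419.8 and 487 CPM, or 7.25-fold (SE 0.0879 log2, adjusted p = 2.6e-16). ZBTB16, a zinc finger repressor, rose 5.62-fold to 43.2 ± 4.06 CPM, KLF9, a Krüppel-like factor, 2.58-fold, RGS2, a brake on G protein signalling, 2.35-fold, and CEBPD, a basic leucine zipper factor, 2.05-fold. The metallothioneins MT2A and MT1X, which bind zinc and belong to a family of near-identical genes, rose 1.69-fold and 1.72-fold, with MT1X not called without vehicle 1, vehicle 3 or R1881 3 (0.60 to 0.72 log2). TSC22D3, also called GILZ, and PER1, a clock gene, were not called at -0.37 and 0.40 log2. PDK4, CRISPLD2 and ANGPTL4, an inhibitor of lipoprotein lipase, fell, the last of them 1.61-fold.

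Steroid-metabolizing genes moved in both directions, 3 up and 5 down of 19, where 4.19% of all genes tested rose and 9.64% fell. The median was 0.00, and ran from -0.16 without vehicle 2 to 0.12 without R1881 1. SULT1E1, which sulphates oestrogens, fell from 4.34, 4.9 and 4.18 to 0.402, 0.296 and 0.689 CPM (9.51-fold, adjusted p = 9.5e-09). AKR1C2, a ketosteroid reductase that inactivates dihydrotestosterone, rose 1.55-fold (0.57 log2 and under the fold threshold without vehicle 1, and not called with library size alone), and its close paralogue AKR1C1, not called, stood at -0.39 log2. SRD5A1, which reduces testosterone to dihydrotestosterone, stood at 0.24 log2 and was not called. The UGT2B enzymes, encoded side by side on chromosome 4, moved in both directions. UGT2B17 (starting at 68537184), UGT2B15 (68537413), UGT2B10 (68815993) and UGT2B7 (69051363) fell, and UGT2B11 (69004618), UGT2B28 (69280487) and UGT2B4 (69480165) rose. UGT2B15, a main enzyme of dihydrotestosterone glucuronidation, fell from 437, 462 and 555 to 148, 145 and 164 CPM, or 3.19-fold (adjusted p = 9.0e-13). UGT2B10 fell from 97.1, 109.5 and 137 to 21.3, 23 and 28.2 CPM, or 4.74-fold, and UGT2B4 rose from 45.8, 59.1 and 64.2 to 139, 152 and 193 CPM, or 2.86-fold. In both genes vehicle and R1881 libraries lay apart. The intervals of UGT2B17 and UGT2B15 overlap, as do those of UGT2B11 and UGT2B7, and UGT2B28 contains the pseudogenes UGT2B25P and UGT2B24P. UGT2B25P held 1, 3 and 3 counts with vehicle and 55, 39 and 71 with R1881, a ratio of 22.9 (95% exact counting interval 10.9 to 57.8). UGT2B24P held 1, 3 and 1 and 58, 72 and 80, a ratio of 40.7 (95% exact counting interval 17.2 to 127).

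**Figure D3:**
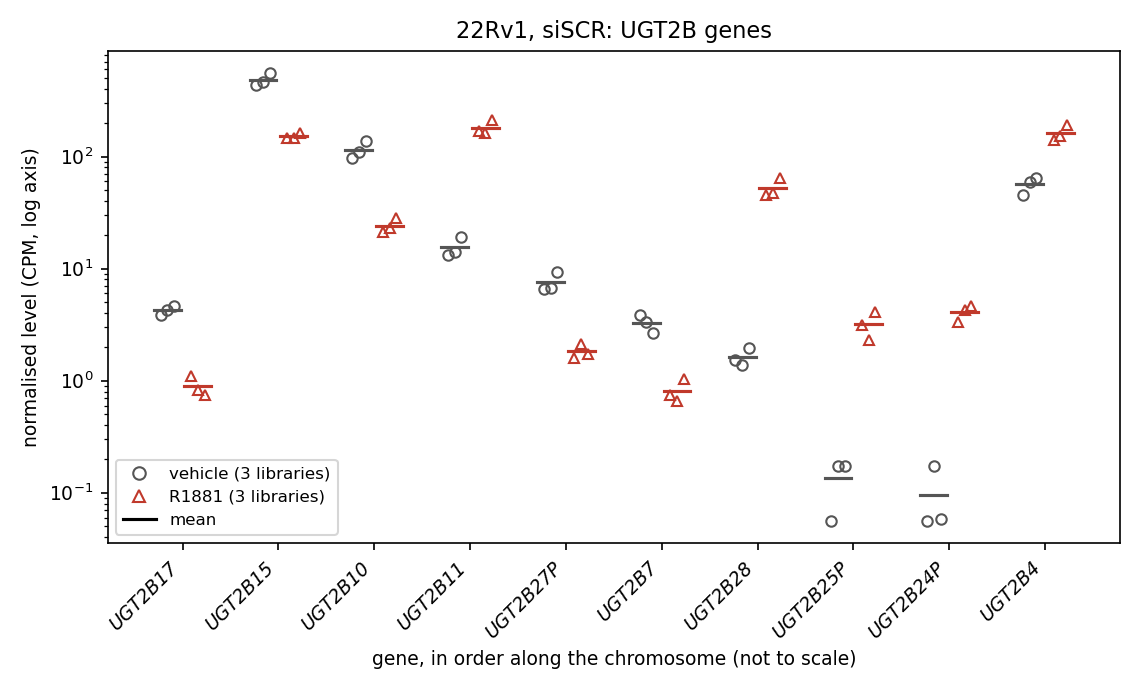
Level in CPM (log axis) of the UGT2B genes and pseudogenes of chromosome 4 in each siSCR library of 22Rv1, 3 with vehicle and 3 with R1881, in the order of their start on the chromosome. UGT2B17, UGT2B15 and UGT2B10 drop with R1881, and UGT2B28, UGT2B25P, UGT2B24P and UGT2B4 rise, with UGT2B11 rising and UGT2B27P and UGT2B7 dropping between these blocks.

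Lipid synthesis showed no shared direction. The shares over all genes tested were 4.19% higher and 9.64% lower. In cholesterol synthesis 1 of 27 genes rose, SC5D, and 3 fell, with a median of -0.02 (0.0087 without vehicle 1 and -0.093 without vehicle 3). The sterol reductase TM7SF2 fell 1.94-fold and SREBF1, a regulator of lipid synthesis, 1.53-fold. Without vehicle 1 both SC5D and SREBF1 were under the fold threshold, and SC5D also without vehicle 2 or R1881 3 (0.52 to 0.57 log2 for SC5D and -0.51 for SREBF1). SC5D was also not called with library size alone, with a minimum mean of 1 CPM, with no filter on low counts and in a fit of the 6 siSCR libraries. In fatty acid metabolism 4 of 34 genes rose and 6 fell, with a median of 0.05 (0.015 without vehicle 1 or R1881 3, and -0.015 with library size alone). ELOVL5, which elongates polyunsaturated fatty acids, rose from 189, 184 and 199 to 658, 633 and 738 CPM, or 3.55-fold (SE 0.0762 log2, adjusted p = 4.1e-14). ELOVL2, another elongase, rose 2.38-fold and FASN, fatty acid synthase, 1.68-fold. ACSL5, which activates long-chain fatty acids, fell 3.29-fold, and the desaturases FADS2 and SCD fell 1.78-fold and 1.64-fold.

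ER folding genes moved mainly upward, with 10 of 34 higher, 1 lower and a median of 0.31, and 28 of the 34 changes positive. Among all genes tested 4.19% were higher and 9.64% lower. With library size alone 7 were higher, 2 lower and the median was 0.25, and 2 were lower without vehicle 2, vehicle 3 or R1881 2. HSPA5 went from 655, 759 and 709 to 1252, 1299 and 1192 CPM (SE 0.0783 log2, adjusted p = 3.9e-08) with no overlap. DNAJB9, a co-chaperone of HSPA5, rose 1.77-fold, SEC24D, a coat protein of vesicles leaving the ER, 1.75-fold, ERN1, the stress sensor IRE1, 1.55-fold (not called with library size alone), and DDIT3, the stress factor CHOP, 1.68-fold. CRELD2, another ER stress gene, fell 1.68-fold, and XBP1 stood at -0.43 log2. The hexosamine pathway supplies sugars for glycosylation. Of 25 genes listed for this pathway and for glycosylation 4 rose and 4 fell. The median was 0.05 (0.16 without vehicle 3, 0.011 without vehicle 1, 0.015 without vehicle 2 and -0.0088 with library size alone). GFPT1, the rate-limiting enzyme of the pathway, rose 2.12-fold from 262, 302 and 330.2 to 650.5, 655 and 593 CPM (adjusted p = 2.7e-08). PGM3 rose 1.91-fold and UGDH, which makes UDP-glucuronate, 1.93-fold. ST6GALNAC1, a sialyltransferase, rose as well, and the glycosyltransferases ST3GAL1, CSGALNACT1 and GALNT12 fell, as did GFPT2. Among 15 polyamine genes ARG2, which makes ornithine, rose 1.51-fold and PAOX fell 1.68-fold, with ARG2 under the fold threshold without vehicle 1, vehicle 2 or R1881 1 (0.48 to 0.54 log2) and not called with library size alone, with a minimum mean of 1 CPM, with no filter on low counts and in a fit of the 6 siSCR libraries.

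**Figure D4:**
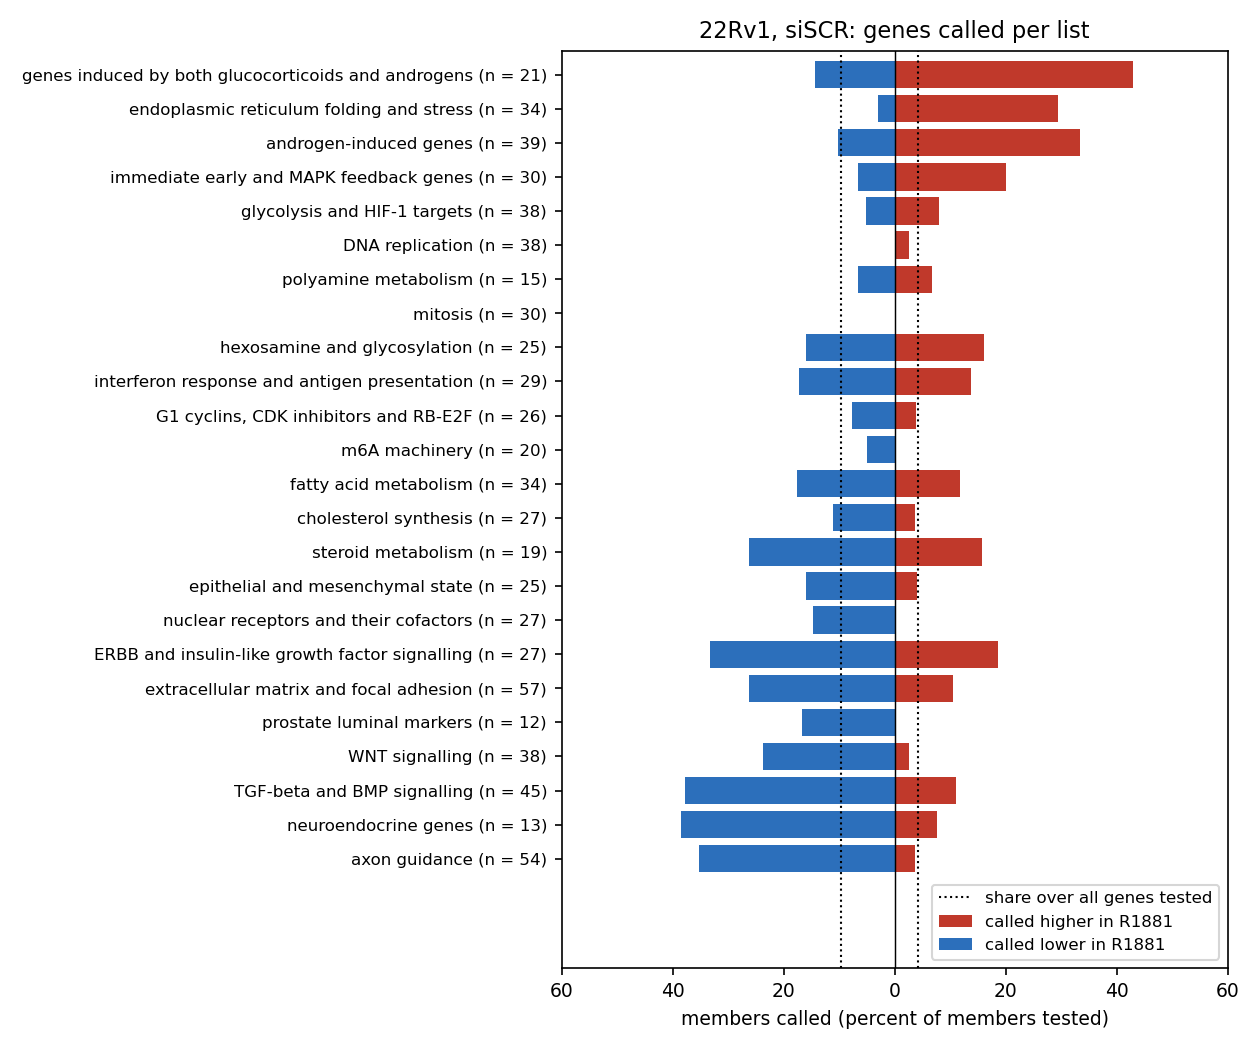
Share of tested members called in siSCR 22Rv1 cells (horizontal axis, percent), higher with R1881 to the right and lower to the left, 1 row per gene list with at least 10 tested members, with dotted lines at the shares over all genes tested (4.19% and 9.64%). The axon guidance bar holds 19 falls and 2 rises among 54 genes, and the ER folding bar 10 rises and 1 fall among 34.

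Genes of growth factor pathways moved in both directions, with more falls than rises, as over all DEGs, of which 69.7% were lower. Of all genes tested 9.64% fell and 4.19% rose. In the TGF-beta and BMP list 17 of 45 genes fell and 5 rose, with a median of -0.37. Among the ligands INHBA, an activin subunit, fell from 14.2, 14.1 and 17.1 to 1.67, 1.54 and 2.18 CPM, or 8.37-fold (adjusted p = 4.7e-12), BMP2 2.96-fold and TGFB1 2.11-fold, while TGFB2 rose. Among the antagonists FST, which binds activins, fell 6.88-fold, BAMBI, a decoy receptor, 2.73-fold, and the inhibitory SMADs SMAD6 and SMAD7 2.2-fold and 1.94-fold. The BMP target genes ID1, ID2, ID3 and ID4 fell together. ID1 went from 108, 97.2 and 101 to 51.3, 50.3 and 61.8 CPM, or 1.87-fold (SE 0.085 log2, adjusted p = 3.1e-08). ID2 fell 2.2-fold, ID3 1.94-fold and ID4 1.53-fold, the last under the fold threshold without vehicle 3, R1881 1 or R1881 2 (-0.58 to -0.54 log2). The receptors TGFBR1 (0.11 log2), TGFBR2 (-0.13) and BMPR2 (0.03, of opposite sign with library size alone) were not called.

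In WNT signalling 9 of 38 genes fell and 1 rose (2 without vehicle 3 or R1881 3), with a median of -0.38. The shares over all genes tested were 9.64% and 4.19%. The secreted inhibitor DKK1 went from 1.41, 1.67 and 1.8 to 0.23, 0.652 and 0.344 CPM, or 3.95-fold (SE 0.35 log2, adjusted p = 1.5e-04). The R-spondin receptors LGR5 and LGR4 fell, LGR5 from 10.6, 9.23 and 13 to 2.99, 3.14 and 4.59 CPM (3.06-fold) and LGR4 from 115, 109.8 and 137 to 48.5, 46.8 and 46.4 CPM (2.55-fold). Vehicle and R1881 libraries of LGR5 and LGR4 lay apart. The ligand WNT7B fell 2.56-fold with overlapping groups, and the receptor FZD2 2.57-fold. AXIN2, a common WNT target, stood at -0.32 log2 (adjusted p = 0.488) and CTNNB1, beta-catenin, at 0.17. The ligand WNT9A rose 1.8-fold.

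Receptors and ligands of the ERBB and insulin-like growth factor axis gave 9 falls and 5 rises among 27 genes, with a median of -0.43. Falls made up 9.64% and rises 4.19% of all genes tested. ERBB2 (chromosome 17, 39687914 to 39730426), the receptor HER2, fell from 91.4, 85.7 and 71.8 to 39.4, 39.7 and 39.3 CPM, or 2.1-fold (SE 0.10 log2, adjusted p = 1.2e-08), and ERBB4 fell 2.28-fold. The ligands TGFA, AREG and EREG fell 2.18-fold, 1.68-fold and 1.5-fold, EREG being under the fold threshold without vehicle 3 or R1881 3 (-0.52 to -0.45 log2) and not called with the replicate block, whereas HBEGF, another EGF receptor ligand, rose from 2.31, 2.31 and 2.79 to 7.12, 6.28 and 7.18 CPM (2.78-fold). IGFBP2 and IGFBP6 fell 2.81-fold and 2.41-fold, and IGFBP1 and IGFBP3 rose. IRS1, an adaptor of the insulin receptor, fell 1.85-fold. Of 30 immediate early and MAPK feedback genes 6 rose and 2 fell, with a median of 0.12. Without vehicle 3 the median was 0.00092, with 5 rises and 1 fall, and 1 fell also without vehicle 1, R1881 1, R1881 2 or R1881 3. Without R1881 2 it was 0.061, without R1881 3 0.054 and with library size alone 0.058. PHLDA1 rose 3.89-fold, FOS, a subunit of AP-1, from 16.2, 16.4 and 18.6 to 43.1, 41.5 and 47.9 CPM (2.59-fold), SPRY2, a feedback inhibitor, 2.01-fold and EGR1 1.78-fold. MYC stood at 338 ± 21.6 CPM with vehicle and 325 ± 13.9 CPM with R1881 (adjusted p = 0.56).

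Of 54 axon guidance genes measured 19 fell and 2 rose, 46 had a negative change, and the median was -0.37. Among all genes tested 9.64% fell and 4.19% rose. ROBO2 and ROBO1, receptors of SLIT proteins, fell 10.4-fold and 2.08-fold, and UNC5C, a netrin receptor, 6.77-fold. The semaphorin receptor NRP2 went from 1.24, 2.83 and 1.51 to 0.919, 0.415 and 0.172 CPM, or 3.66-fold (adjusted p = 0.0068), which did not pass without vehicle 2 (adjusted p = 0.0612). SEMA3C (chromosome 7, 80742538 to 80922359), a secreted semaphorin, went from 110.2, 106 and 129 to 34.4, 35.7 and 39.5 CPM, or 3.15-fold (SE 0.0912 log2, adjusted p = 4.7e-12). Among Eph receptors and ephrins EPHA7, EPHA3 and EPHB2 fell 4.46-fold, 3.36-fold and 2.24-fold, and EFNB2 3.37-fold. The netrin receptor UNC5B rose 1.72-fold and ABLIM3, which binds actin, 2.53-fold.

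Matrix and adhesion genes gave 15 falls and 6 rises of 57, with a median of -0.30, where 9.64% of all genes tested fell and 4.19% rose. CAV1, the main protein of caveolae, fell from 5.13, 6.98 and 6.73 to 0.574, 1.07 and 0.574 CPM, or 8.46-fold (adjusted p = 1.7e-08), and its partner CAV2 2.04-fold. The call of CAV2 was lost without vehicle 1, vehicle 2, R1881 2 or R1881 3 (adjusted p = 0.0655 to 0.187) and with the replicate block. Tenascin C (TNC) fell 4.92-fold, ITGB4, the hemidesmosome integrin, 3.09-fold and the laminin chain LAMB1 2.46-fold. COL4A6 and COL4A5, basement membrane collagens, rose 3.09-fold and 1.67-fold, COL6A3 2.91-fold, LAMA3 2.83-fold and ITGB8 2.34-fold. The list holds COL1A1, also a stromal marker, which fell 1.66-fold. The summed level of stromal markers, lower with R1881 as given above, moved with this list, and their part in it was not tested. In the epithelial and mesenchymal list CDH2, N-cadherin, fell from 15.1, 11.7 and 15 to 3.85, 2.9 and 5.34 CPM (3.44-fold, adjusted p = 5.3e-07), and so did the epithelial genes MUC1, OVOL1 and OCLN, while CLDN12 rose. CDH1, E-cadherin, stood at -0.33 log2 and vimentin (VIM) at -0.16, with no call. Of 13 neuroendocrine genes 5 fell and 1, CALCA (calcitonin), rose, with a median of -0.50. CHGB, a granin of secretory granules, fell 4.89-fold, DLL3, an inhibitory NOTCH ligand, 2.85-fold, and SOX2, a factor of stem and neural cells, 1.97-fold. SYP, synaptophysin, stood at -0.18 log2. In bulk RNA, fewer cells of a type and less RNA per cell cannot be told apart.

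Most genes of proliferation changed by less than the fold threshold. Rises made up 4.19% and falls 9.64% of all genes tested. Of 38 DNA replication genes 1 rose, CDC6, which loads the replicative helicase, from 53.7, 62.5 and 73.1 to 93.1, 92.4 and 101 CPM, close to the threshold at 1.51-fold, and under it without vehicle 1 or R1881 3 (0.49 to 0.56 log2). CDC6 was not called with library size alone, and 2 genes of the list rose without vehicle 3. The median was 0.20, with 16 genes higher and 2 lower at an adjusted p under 0.05 without regard to fold. Of 30 mitosis genes edgeR and DESeq2 called none. At an unadjusted p under 0.05, 9 were lower and 0 higher. The median of -0.11 was -0.0059 without vehicle 3, -0.048 without R1881 1, -0.21 without R1881 3 and -0.17 with library size alone. MKI67, the proliferation marker Ki-67, stood at 250.4, 242 and 247 CPM with vehicle and 191, 207 and 216 CPM with R1881 (log2 fold change -0.27, adjusted p = 0.0093). In the list of G1 regulators CCNE1, cyclin E1, rose 1.6-fold, and CDKN2B, the CDK inhibitor p15, and E2F7, a repressor of the E2F family, fell 2.47-fold and 1.59-fold, E2F7 being under the fold threshold without vehicle 3 (-0.56 log2). CCND1, CDKN1A and RB1 stood at 0.04, -0.06 and 0.31 log2, CCND1 with the opposite sign under library size alone.

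Interferon and antigen presentation genes went both ways, with 4 higher and 5 lower of 29, where 4.19% of all genes tested were higher and 9.64% lower. NLRC5, the activator of class I genes, rose 4.62-fold, IFI16, a DNA sensor, 3.05-fold, and B2M, the light chain of class I molecules, from 169, 194 and 222 to 393, 399 and 438 CPM (2.1-fold). PSMB9, a subunit of the immunoproteasome, fell 3.36-fold. The call of IFI16 was lost without vehicle 1, vehicle 2 or R1881 2 (adjusted p = 0.0977 to 0.153) and that of PSMB9 without R1881 3 (adjusted p = 0.0692). In glycolysis and HIF-1 targets 3 of 38 genes rose and 2 fell, with a median of 0.15. Without R1881 2 the rises were 6, without vehicle 1 or R1881 3 they were 2, and with library size alone they were 2 and the median 0.089. SLC2A3 was followed by the collagen prolyl hydroxylases P4HA2 and P4HA1 at 1.57-fold and 1.51-fold. P4HA2 was under the fold threshold without vehicle 3 (0.58 log2) and P4HA1 without vehicle 1, vehicle 2 or R1881 3 (0.54 to 0.55), and P4HA1 was not called with library size alone. EGLN3, which hydroxylates HIF, fell 6.49-fold from 6.2, 4.96 and 4.76 to 0.632, 0.711 and 1.09 CPM, and PDK4 fell. Of 20 genes of the m6A machinery FTO, a demethylase, was the only one called, by edgeR and by DESeq2 (without vehicle 2 edgeR also called 1 rise). It went from 206, 195 and 204 to 72.1, 75.9 and 74.4 CPM, or 2.72-fold lower (SE 0.0728 log2, adjusted p = 1.1e-12). METTL3, the m6A methyltransferase, had 50.4, 49 and 49.7 CPM with vehicle and 55.1, 52 and 54.9 CPM with R1881 (adjusted p = 0.267). The reference genes of RT-qPCR stayed under the fold threshold, GAPDH at 0.10 log2 (adjusted p = 0.24) and ACTB at 0.34 (adjusted p = 2.4e-04).

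Some stretches of neighbouring genes held only DEGs of 1 direction. The runs below are stretches of at least 4 consecutive tested genes called in 1 direction, so the shared direction of their members follows from this definition. Of all genes tested 9.64% fell and 4.19% rose. Whether such runs were more frequent than for genes in random order was not tested. Members other than those named above were chosen after their values were seen. On chromosome 7, from 27184518 to 27250493, 7 neighbours fell, HOXA11-AS, HOXA13, HOTTIP, EVX1-AS and EVX1 among them. HOTTIP, a long noncoding RNA of the HOXA cluster, had 0.451, 0.519 and 0.755 CPM with vehicle and 0.0574, 0 and 0.0574 CPM with R1881. On chromosome 16, from 53487607 to 54286763, FTO fell with AKTIP (1.6-fold), RPGRIP1L (2.07-fold) and the homeobox gene IRX3, which went from 314, 299 and 244 to 119, 114 and 109 CPM (2.51-fold). On chromosome 12, from 8950044 to 9275817, A2M, the plasma protease inhibitor alpha-2-macroglobulin, fell from 37.9, 39.3 and 36.8 to 10.7, 8.83 and 9.99 CPM (3.86-fold), and its relative PZP fell in the same run of 6. The longest run, 9 genes on chromosome 18 from 14179097 to 15197775, held pseudogenes and ANKRD30B, all lower. Among the runs of rises were TM4SF1 (2.11-fold) and WWTR1 (2.2-fold), the co-activator TAZ, on chromosome 3. Some of these neighbours overlap or are antisense to each other, and without strand their fragments cannot be assigned with certainty.

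The palindromic androgen response element, read on both strands as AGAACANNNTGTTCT, was found in 1 of 27305 RefSeq promoters (250 bases before to 50 after the start) and in 0 of the 12120 promoters of genes tested. The single arm AGAACA, which the palindrome contains, stood in 14.9% of all promoters, in 9.10% of those of genes tested, in 9.98% of 531 promoters of higher DEGs and in 10.1% of 1170 promoters of lower DEGs. Only exact matches were counted, and variants of this sequence and distant elements were not searched. With so few exact matches in any promoter, the search cannot tell which promoters hold an androgen response element.

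The same treatment of 22Rv1 cells with siMETTL3, in 6 libraries that share none with those above, called 2406 DEGs (13.5% of genes tested), 746 higher (4.18%) and 1660 lower (9.29%). METTL3 had 26.9, 26.1 and 27.4 CPM in the siMETTL3 vehicle libraries and 22.7, 26.1 and 22.4 CPM in the siMETTL3 R1881 libraries, all below each of the 6 siSCR libraries. Of the 749 siSCR rises 506 were also called there (67.6% of the siSCR and 67.8% of the siMETTL3 rises), and of the 1722 falls 1207 (70.1% and 72.7%). The sign was kept in 729 of 749 and 1696 of 1722, and 1 gene was called in the opposite direction. The difference between the responses passed its own test (adjusted p under 0.05) for 3 of 17865 genes (0.0168%), and for 30 genes when vehicle library 3 was left out. All 3 rose more with siSCR. AKAP12 rose by 4.40 log2 with siSCR and by 3.68 with siMETTL3 (adjusted p of the difference = 0.0275). AGR2 (chromosome 7, 16791811 to 16833433), a disulphide isomerase of the ER, rose from 69.9, 73.6 and 79.5 to 227, 224 and 224 CPM with siSCR and from 97.1, 86 and 91.8 to 166, 159.7 and 169 CPM with siMETTL3. IGFBP3 (chromosome 7, 45912245 to 45921874), the main carrier of insulin-like growth factors, rose from 124, 121 and 127 to 347, 323 and 309 CPM with siSCR and from 142, 127 and 147 to 228, 198 and 214 CPM with siMETTL3. For AGR2 and IGFBP3 the siMETTL3 vehicle libraries lay above the siSCR vehicle libraries and the siMETTL3 R1881 libraries below those of siSCR. No gene called with one siRNA pool alone differed between the responses.

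LNCaP:C4-2 cells under siSCR, a line derived from LNCaP, gave 2838 DEGs among 19437 genes (14.6%), 1367 higher (7.03%) and 1471 lower (7.57%), in a fit of all 24 libraries. Of the 22Rv1 rises 225 were also rises in LNCaP:C4-2 (30.04% of the 22Rv1 and 18.8% of the LNCaP:C4-2 rises tested in 22Rv1), and of the falls 354 (20.6% and 27.9%). In LNCaP:C4-2, 34 of the 22Rv1 rises fell and 90 of the falls rose. Some of these opposite calls rest on LNCaP:C4-2 levels near the smallest readable signal, and their fitted folds there give no measured size. Mean levels there went from 0 to 0.149 CPM for CNTFR, from 0 to 0.161 for PCAT14 and from 0.182 to 0 for SHISA9. Others lay far above that signal, such as IGFBP3 (48.2 to 6.82 CPM) and KLK4 (43.3 to 117 CPM). The response itself differed between the lines at 3266 genes (16.8%), 1513 with a higher (7.78%) and 1753 with a lower change (9.02%) in 22Rv1. This split depended on the scaling, since 46.3% were higher with TMM, 37.2% with RLE factors and 55.9% with library size alone.

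The lines differed at most genes of the androgen-induced list. That list was hand-written with earlier results of these data known, so its counts are descriptions and no test of the lines. Over all genes tested in the fit of 24 libraries, 7.03% rose in LNCaP:C4-2. The response was lower in 22Rv1 at 9.02% of them and higher at 7.78%. In LNCaP:C4-2 37 of the 39 rose, with a median of 2.26 log2 against 0.15 in 22Rv1, and 34 had a lower response in 22Rv1 under TMM, RLE factors, library size alone and DESeq2. KLK3 went from 22.2, 20.9 and 15.9 to 370.0, 316 and 319.5 CPM in LNCaP:C4-2, and the 22Rv1 response minus that in LNCaP:C4-2 was -4.10 log2 (SE 0.20, adjusted p = 6.9e-14). TMPRSS2 went from 52.4, 49.8 and 44.9 to 1241, 810.3 and 794 CPM there. FKBP5, which responded in both, went from 83.8, 80.7 and 90.9 to 1052, 917 and 925 CPM, and the difference between the lines was -0.17 log2 (SE 0.11, adjusted p = 0.324). STEAP4 and SLC2A3 had no counts in the LNCaP:C4-2 vehicle libraries, so their fitted folds there depend on the prior count and give no measured size. Cholesterol synthesis had a median of 0.57 log2 in LNCaP:C4-2 against -0.02, and 20 of 27 genes had a lower response in 22Rv1 (17 with library size alone). DNA replication had a median of -0.60 in LNCaP:C4-2 against 0.20, and 30 of 38 genes had a higher response in 22Rv1 (29 to 31 under the other scalings). IGFBP3 was among the genes of opposite direction, with 22Rv1 at 1.39 and LNCaP:C4-2 at -2.81 log2, as were KLK4 (-0.83 and 1.43), SCD (-0.72 and 0.94), FADS2 (-0.83 and 0.80) and MT2A (0.76 and -1.24).

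Several of the largest 22Rv1 rises were also of different size. UGT2B28 rose from 9.39, 11 and 14.6 to 33.9, 59.4 and 64.9 CPM in LNCaP:C4-2, 2.82 log2 less than in 22Rv1 (SE 0.37, adjusted p = 3.4e-06), from a higher vehicle level. UGT2B11 rose from 41.8, 35.9 and 49.9 to 60.8, 101 and 114 CPM, 2.44 log2 less. AKAP12 rose from 1.16, 1.99 and 0.984 to 153, 125 and 140.4 CPM, a larger rise than in 22Rv1 (difference -2.24 log2, adjusted p = 3.7e-09) to a lower level. MBOAT2 rose in both lines, from 85.9, 79.3 and 89.3 to 806, 782 and 815 CPM in LNCaP:C4-2. PDE3A, ANKRD33, FGB, EDIL3, ROBO2 and NTM had no counts in any of these 6 LNCaP:C4-2 libraries, so no response could be read there. GC fell in LNCaP:C4-2 too, from 22.4, 16.5 and 20.9 to 0, 0.0646 and 0.106 CPM, and ALB from 4.2, 3.81 and 5.15 to 0.118, 0.388 and 0 CPM.

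**Figure D5:**
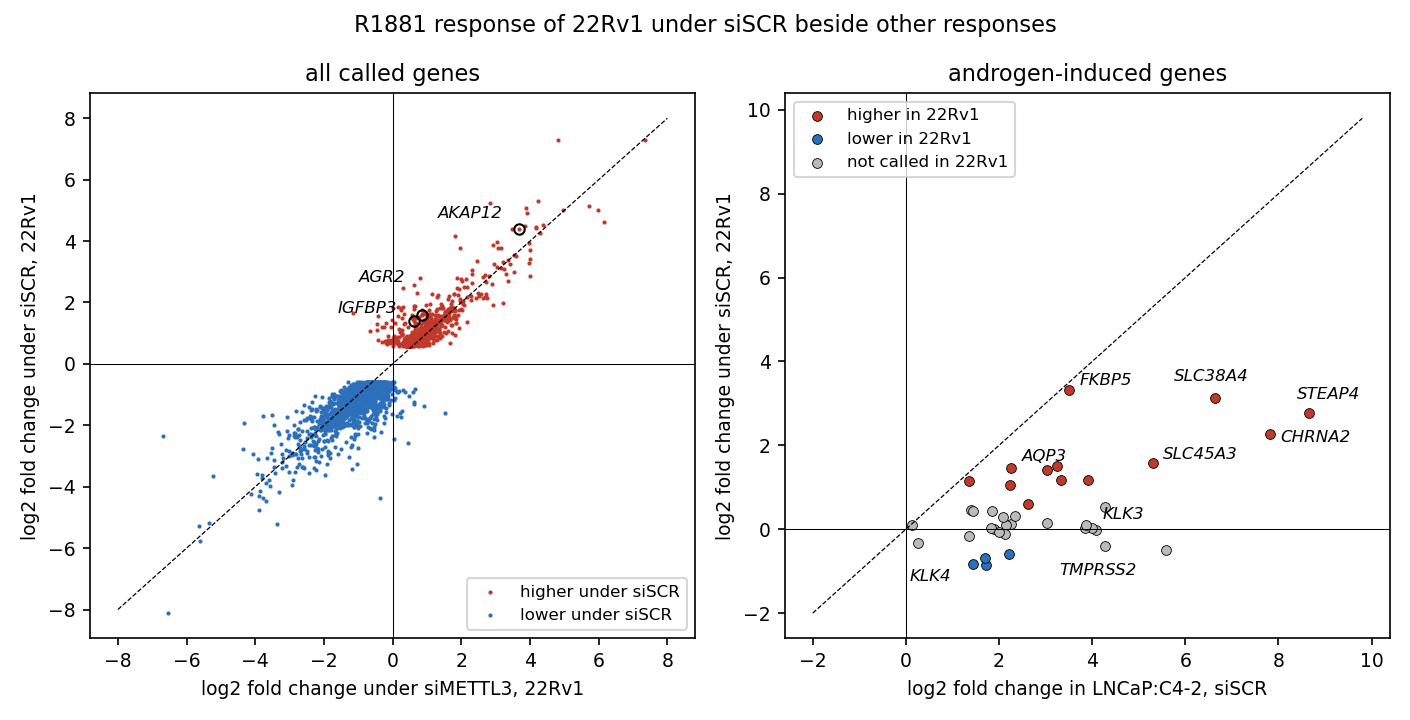
Left, log2 fold change of R1881 over vehicle in 22Rv1 under siSCR (vertical axis) against siMETTL3 (horizontal axis) for the 2471 siSCR DEGs, 1 point per gene, with the equality line and circles on the 3 genes whose responses differed. Right, the same quantity in 22Rv1 (vertical) against LNCaP:C4-2 (horizontal) under siSCR for the 39 androgen-induced genes. Most lie below the equality line, and 34 had a lower response in 22Rv1, where 9.02% of all genes tested did.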

How the data were processed

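The RNA-seq libraries of 22Rv1 and LNCaP:C4-2 cells were read from the gene counts that the authors deposited. Reads were trimmed with Trim Galore and cutadapt, checked with FastQC and aligned with STAR to GRCh38, as the study's methods and processing notes name these tools. Fragments were counted by the authors per gene with featureCounts 1.5.0 and Ensembl release 83, in pairs and without a strand option, leaving out fragments that aligned to several places or met several genes. The deposited counts are raw, with 60675 genes per library. Of these 56558 were named from the reference annotation and 4117 kept their identifier. Coordinates are those of the deposited files.

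The 12 libraries of 22Rv1 were fitted with a mean per condition in edgeR 4.0.16 (R 4.3.3), with TMM scaling. Low genes were removed by filterByExpr (minimum count 10, minimum total 15) before the quasi-likelihood test, which had 8 residual degrees of freedom. An SE is the size of the log2 change over the root of F. The response of siSCR minus that of siMETTL3 used the same fit. The difference between lines used all 24 libraries (16 residual degrees of freedom). DEGs had a Benjamini-Hochberg adjusted p under 0.05 and at least 1.5-fold, the study's thresholds, and the differences between responses an adjusted p under 0.05. The authors used DESeq2, here an alternative (1.42.0). Other alternatives were RLE factors, library size alone, other filters and thresholds, the 6 libraries alone, a replicate block and leaving out each library. Where no library of a group exceeded 3 counts, the text gives a ratio of summed counts with a 95% exact interval. Tests were checked on simulated data with 200 genes changed by 1 log2. For the siSCR response edgeR recovered 82% of them, with 2.96% of calls false. For the difference between siRNA pools it recovered 71.5%, with 2.72% false, and for that between lines 49%, with 7.55% false. Apart from the added change, each simulated gene had 1 mean over all libraries, and simulated rises and falls were equal in number. These shares were therefore not checked for a response with more falls than rises or for genes absent from 1 line.

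The genes named were those the study names for this experiment, the 15 largest rises and 15 largest falls (DEGs averaging 1 CPM or more, with 1 direction in all 3 same-numbered pairs), the 10 DEGs with the largest change in CPM, and members of 28 hand-written gene lists. Some genes that this rule takes are not reported here. Members and lists were chosen with earlier results of these data known, so counts over a list are descriptions. Tables and figures were made with Python 3.11.15, numpy 2.4.6, pandas 2.3.3 and matplotlib 3.10.9.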

Additional observations from a re-analysis of the deposited data

Results flagged for a closer look

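A test of the difference between responses singled out the following results. Between siRNA pools, the response to R1881 in 22Rv1 was larger with siSCR than with siMETTL3 for AKAP12 by 0.72 log2 (SE 0.12, adjusted p = 0.0275), for AGR2 by 0.75 (SE 0.10, adjusted p = 0.00265) and for IGFBP3 by 0.77 (SE 0.11, adjusted p = 0.00265). Each gene rose in all 3 R1881 libraries with both pools.

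Between cell lines, under siSCR, the log2 response in 22Rv1 minus that in LNCaP:C4-2 was 2.82 for UGT2B28 (adjusted p = 3.4e-06), 2.44 for UGT2B11 (adjusted p = 2.6e-07), 1.24 for MBOAT2 (adjusted p = 7.5e-06) and -2.24 for AKAP12 (adjusted p = 3.7e-09). All 4 genes rose in both lines. GC fell in both lines and differed by 3.07 (adjusted p = 7.6e-04), with 3 counts in all in the LNCaP:C4-2 R1881 libraries. BMX differed by -2.15 (adjusted p = 0.0235), and went from 2.37, 0.859 and 1.97 to 0.355, 0.452 and 0.475 CPM in LNCaP:C4-2. The 22Rv1 R1881 libraries held 8 counts of BMX in all, so this difference gives no measured size. REG4 differed by -3.45 (adjusted p = 0.0255). It had 0.828, 0.215 and 0.0579 CPM with vehicle and 0.178, 0.258 and 0.211 CPM with R1881 in LNCaP:C4-2. Most of these REG4 levels lay near 3 counts, and its 22Rv1 R1881 libraries held 5 counts in all, so its difference gives no measured size. TTLL6 differed by -3.33 (adjusted p = 2.2e-06). The mean level of TTLL6 in LNCaP:C4-2 was 4.61 CPM with vehicle and 3.81 CPM with R1881.

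Fitted differences rested on very few LNCaP:C4-2 counts for other genes and give no measured size. STAB2 differed by 7.38 (adjusted p = 3.3e-05), with 11 counts in all in the vehicle and 1 in the R1881 libraries of LNCaP:C4-2. SLC26A3 differed by -5.85 (adjusted p = 1.0e-03) and SLC2A3 by -6.99 (adjusted p = 0.00523), both with 0 counts in the LNCaP:C4-2 vehicle libraries and 318 and 628 in the R1881 libraries. MGAT4C differed by -7.64 (adjusted p = 0.00164), with 0 and 5 counts.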

How the results depend on the processing

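The number of DEGs depended most on how the fold threshold was used. It was 2471 in the fit described, 964 with the 1.5-fold threshold inside the test (294 higher and 670 lower) and 5903 with no fold threshold (2962 higher and 2941 lower). DESeq2 called 2381, RLE factors 2474, library size alone 2555, no filter on low counts 2602, a minimum mean of 1 CPM 2194 and a fit of the 6 siSCR libraries 2330. With each library left out in turn there were 2067 to 2855 DEGs, 626 to 957 higher and 1441 to 1898 lower, the highest without vehicle 3. The responses with siSCR and siMETTL3 differed at 3 genes, at 2 to 30 with a library left out (30 without vehicle 3) and at 79 with no filter on low counts. The cause was not tested. The responses of the lines differed at 3266 genes, and at 2686 to 3218 with a library left out. KLK3, not called, changed sign to 0.037 log2 without R1881 1, 0.033 without R1881 2 and 0.026 without vehicle 1, within a range of -0.11 to 0.037 over the left-out libraries. Of 229 named or listed genes called, 189 kept the call throughout. This covers the alternatives for normalization, tool, filter, samples and block, and each library left out. Of the others, 38 lost the call with some library left out. The 189 held 39 of the 39 called genes with the largest changes or named by the study. These 39 were picked for large changes in the same libraries, so their result was nearly fixed in advance and is no test of stability.

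Over the 12 libraries of 22Rv1, those with the same replicate number did not deviate together. The mean correlation was -0.010 over 18 same-numbered pairs and 0.0053 over 36 pairs of different number. In the 6 siSCR libraries it was 0.085 over 3 same-numbered pairs (0.00498 to 0.152) and -0.042 over 6 pairs of different number. No source says that same-numbered libraries share a culture. A fit with the replicate block gave 2418 DEGs (737 higher and 1681 lower), 3 genes with different responses to the siRNA pools and 3085 between lines.

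Depth limits the genes near 3 counts: 23 higher DEGs had at most 3 counts in every vehicle library and 44 lower DEGs in every R1881 library.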
